A study of Mus musculus with 4 samples.

Results

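Calcium handling in heart muscle was followed through 10 genes that were chosen by symbol, Atp2a2, Ryr2, Pln, Casq1, Casq2, Cacna1c, Slc8a1, Trdn, Jph2 and Srl, out of 19465 genes in the count matrices. All 10 were measured with Visium slides, which capture RNA at a grid of spots, in 4 mouse heart sections fixed in formalin and embedded in paraffin, each 5 µm thick, and all 10 passed the low-count filter of every test. The mice were wild type FVB/NJ animals. All of them were immunized with MyHCα peptide, a fragment of the alpha cardiac myosin heavy chain, and all received anti-PD-1 and anti-CTLA-4, a pair of immune checkpoint inhibitors (ICIs). In 2 sections the ICIs were given alone, and the labels record myocarditis in this group. In the other 2 sections an antibody that neutralizes IL-17A was given as well, and the labels record that the myocarditis was mitigated. Each group held 1 section of batch 1 and 1 of batch 2, and the batch number is used as the replicate number. Age, sex and dosing are not given in the sources used here, and no untreated or unimmunized heart was analysed here. Whether each section is from a different animal is not stated in the labels, and the p-values therefore measure only section-to-section spread.

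All are protein-coding genes, placed here by the RefSeq annotation of GRCm38.p6 (mm10). For the pump, its inhibitor and the release channel with its anchor, Atp2a2 spans chr5:122453513-122502225, Pln spans chr10:53337686-53345999, Ryr2 spans chr13:11553099-12106945 and Trdn spans chr10:33083483-33476709. For the calcium-binding proteins of the store, Casq1 spans chr1:172209894-172219895, Casq2 spans chr3:102086415-102146514 and Srl spans chr16:4476979-4541908. For the surface channel, the exchanger and the junction protein, Cacna1c spans chr6:118587240-119197384, Slc8a1 spans chr17:81373105-81738387 and Jph2 spans chr2:163336242-163398049.

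With each heartbeat, calcium enters a cardiomyocyte through the L-type channel and triggers a much larger release from the sarcoplasmic reticulum, the internal calcium store, through the ryanodine receptor. Relaxation follows when the pump SERCA2a returns calcium to the store, under the brake of phospholamban, and the sodium-calcium exchanger carries the remainder out of the cell. Inside the store calcium is held by calsequestrin, which triadin links to the release channel, and junctophilin holds the store close to the surface membrane. In inflamed heart muscle, both loss of cardiomyocytes and altered calcium cycling are known to impair contraction.

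Promoter windows of 4 of the genes are printed because the results below turn on them: Casq1 passed the treatment test, Casq2 is its cardiac counterpart, and Pln and Slc8a1 had the largest and the smallest fitted fall in leukocyte-rich tissue. They were picked for display after these values were seen. Each window holds the 250 bases before an annotated start, from RefSeq on GRCm38.p6 (mm10), 5′ to 3′ on the strand of the gene. Casq1 lies on the minus strand at chr1:172219896-172220145, Casq2 on the plus strand at chr3:102086165-102086414, Pln on the plus strand at chr10:53337436-53337685, and Slc8a1 on the minus strand at chr17:81738388-81738637. Capitals mark a MEF2 match in Casq2 and the letters GATAAG in Pln and Slc8a1, and Casq1 holds no capitalised match.
Casq1: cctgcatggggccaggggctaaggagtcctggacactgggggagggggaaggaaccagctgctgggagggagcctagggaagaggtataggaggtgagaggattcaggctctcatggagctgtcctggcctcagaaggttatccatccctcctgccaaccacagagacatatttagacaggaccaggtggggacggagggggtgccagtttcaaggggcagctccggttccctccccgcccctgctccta
Casq2: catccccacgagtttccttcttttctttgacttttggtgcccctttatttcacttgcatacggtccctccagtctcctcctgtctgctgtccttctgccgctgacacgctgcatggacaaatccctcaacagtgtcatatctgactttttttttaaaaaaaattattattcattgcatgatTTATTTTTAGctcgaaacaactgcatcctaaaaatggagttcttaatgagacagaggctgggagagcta
Pln: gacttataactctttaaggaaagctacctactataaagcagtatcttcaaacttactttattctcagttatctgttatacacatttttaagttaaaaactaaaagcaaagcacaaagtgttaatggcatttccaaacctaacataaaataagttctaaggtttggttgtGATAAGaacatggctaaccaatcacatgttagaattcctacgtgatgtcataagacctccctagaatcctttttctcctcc
Slc8a1: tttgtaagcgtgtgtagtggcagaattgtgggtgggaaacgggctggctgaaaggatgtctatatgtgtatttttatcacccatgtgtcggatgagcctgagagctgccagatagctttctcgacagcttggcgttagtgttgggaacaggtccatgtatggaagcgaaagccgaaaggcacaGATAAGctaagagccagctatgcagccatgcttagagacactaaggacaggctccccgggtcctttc
GC content was 61.6% in the Casq1 window, 41.6% in Casq2, 32.8% in Pln and 50.4% in Slc8a1, against a median of 52.4% over 32851 windows of this length. The MEF2 match began 69 bases before the Casq2 start, and GATAAG began 81 bases before the Pln start and 67 bases before the Slc8a1 start. Searched on both strands, the MEF2 motif lay in 2.92% of all windows, the CArG box in 1.47%, GATAAG in 6.55% and CATTCC in 12.6%. No CArG box or CATTCC lay in the windows of the 7 genes with an entry, which are these 4, Cacna1c, Jph2 and Ryr2, and no capitalised match overlapped another. The short E-box CANNTG occurred in every window of the 7 genes, against 66.2% of all windows. A match is only a description of these letters.

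The ICI-alone sections held 2503 and 3052 spots with 73167202 and 66255242 unique molecular identifiers (UMIs), and the antibody sections 2604 and 2585 spots with 47882576 and 33005923 UMIs. Median depth per spot ranged from 12298 to 27912 UMIs. Levels are UMI counts scaled to library size (CPM) after TMM scaling unless another scale is named, in the order ICI-alone batch 1 and 2, then antibody batch 1 and 2. The tissue label was borne out by 6 ventricular cardiomyocyte markers, which summed to 27193 and 18315 CPM without the antibody, against 38120 and 32699 CPM where it was given (marker sums are scaled by library size alone). Marker sums of other cells differed in both directions. Lower with the antibody were a panel of 20 leukocyte genes, at 4455 and 5929 CPM against 2721 and 2942 CPM, and 7 fibroblast markers, at 7470.04 and 16563 CPM against 2021 and 2289 CPM, and macrophage, neutrophil and smooth muscle markers were lower as well. Higher with the antibody were 6 endothelial markers, at 793 and 722 CPM against 1204 and 972 CPM, 7 T cell markers, at 81.6 and 82.0 CPM against 96.3 and 99.5 CPM, 4 erythrocyte markers, at 1466 and 519.6 CPM against 1975 and 1854 CPM, and 5 mesothelial markers, at 8.92 and 16.4 CPM against 22.4 and 24.5 CPM. No marker in these lists was at 0 in any section. A spot covers several cells, so fewer cardiomyocytes and less of a transcript per cardiomyocyte cannot be told apart in any value below. Spots rich in the atrial genes Myl7 and Myl4 lay almost only in antibody replicate 2, with 168 spots there and 0, 1 and 0 in the other sections. Between 2040 and 2239 positional spot barcodes were shared by each pair of sections, since all slides use the same grid.

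The 10 genes together made up 1.51% and 0.890% of UMIs in the ICI-alone sections, against 2.21% and 1.76% in the antibody sections, and both antibody sections lay above both ICI-alone sections. Of the single genes Casq1 alone passed the treatment test, although all 10 had a higher mean with the antibody and 7 of 10 did not overlap between groups (36% of all genes tested did not overlap and were higher). The share that passed, 1 of 10, is read against 3.03% of 18817 genes that passed as higher. The median log2 fold change was 0.63, against 0.085 over all genes. The 10 genes were chosen with earlier results of these data known, so their common direction is a description and not independent support. Within batch 1 the antibody section was higher for 9 of 10 genes and within batch 2 for 10 of 10.

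Atp2a2, which encodes the SERCA2 calcium pump, was measured at 7985 and 4060.1 CPM with ICIs alone and at 11492 and 8559.9 CPM with the antibody. The groups did not overlap, but the ICI-alone sections lay far apart. Their means were 6023 ± 2776 and 10026 ± 2073 CPM (SD, n = 2), a log2 fold change of 0.74 ± 0.50 (SE) that missed the threshold (adjusted p = 0.313, edgeR quasi-likelihood test with Benjamini-Hochberg adjustment, as for every adjusted p here). Pln, the phospholamban gene, lay at 5739.8 and 2688 CPM with ICIs alone and at 6797 and 4434 CPM with the antibody. Here the groups overlapped, with ICI-alone replicate 1 above antibody replicate 2, and the log2 fold change was 0.41 ± 0.49 (adjusted p = 0.555).

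The release channel gene Ryr2 lay at 1137 and 734 CPM with ICIs alone and at 1661 and 1536 CPM with the antibody. The groups were apart, with a log2 fold change of 0.77 ± 0.31 that did not pass (adjusted p = 0.129). Trdn, which encodes triadin, was measured at 234 and 148 CPM against 305 and 212 CPM. Its groups overlapped, and the log2 fold change was 0.44 ± 0.28 (adjusted p = 0.287).

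Among the calcium-binding proteins of the store, Casq1, the main calsequestrin of fast skeletal muscle, rose with the antibody. It was measured at 98.5 and 69.7 CPM with ICIs alone and at 135 and 176 CPM with the antibody, with no overlap and the highest value in antibody replicate 2. The means were 84.1 ± 20.4 and 156 ± 28.7 CPM (SD, n = 2) and the log2 fold change was 0.89 ± 0.22 (adjusted p = 0.0470). The call lay close to the threshold. It was lost without ICI-alone replicate 2 (0.66, adjusted p = 0.0646), antibody replicate 1 (1.06, adjusted p = 0.0772) or antibody replicate 2 (0.68, adjusted p = 0.174). It was also lost without the spots rich in atrial markers (1.08, adjusted p = 0.0636, against 0.0466 with Nppa dropped from those markers), when the sections were thinned to equal totals (adjusted p = 0.0545) and with limma on mean log values per spot (adjusted p = 0.0588). The adjusted p ranged from 0.00177 to 0.671 over all alternatives. Skeletal muscle markers bear on this gene (library-size scale), and a list of 11 summed to 275, 224, 209 and 337 CPM. Most of that sum was Myl1, at 190, 154, 167 and 278 CPM, and Mybpc2, at 78.3, 60.9, 32.3 and 48.5 CPM. Tnni2 lay at 1.93, 2.73, 2.49 and 3.82 CPM and Tnnt3 at 1.22, 1.78, 1.11 and 1.51 CPM. Mylpf lay at 1.33, 1.60, 1.32 and 1.67 CPM and Pvalb at 0.670, 1.39, 1.75 and 1.39 CPM. Myh1, Myh2, Myh4, Tnnc2 and Actn3 lay under 1 CPM in all 4 sections, as did Atp2a1 and Ryr1, which are outside the list.

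Casq2, the cardiac calsequestrin, was measured at 359 and 243 CPM with ICIs alone and at 584 and 429 CPM with the antibody. The groups did not overlap, and the log2 fold change of 0.75 ± 0.28 did not pass (adjusted p = 0.105). Srl, which encodes sarcalumenin, another calcium-binding protein of the store, lay at 132 and 92.8 CPM against 181 and 171 CPM. Its groups were apart as well, with a log2 fold change of 0.65 ± 0.21 (adjusted p = 0.0782). With the batch as a block, which changed calls here, 3 of 10 genes passed, Casq1 (adjusted p = 0.0426), Casq2 (adjusted p = 0.0393) and Srl (adjusted p = 0.0398), when 8.06% of all genes passed as higher.

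The genes of the surface membrane and its junction with the store did not pass. Cacna1c, the pore subunit of the L-type channel, lay at 152 and 94.99 CPM with ICIs alone and at 158 and 157 CPM with the antibody. The antibody sections were nearly equal and above both others, and the log2 fold change was 0.35 ± 0.24 (adjusted p = 0.309). Slc8a1, the sodium-calcium exchanger, lay at 342 and 310.1 CPM against 339 and 362 CPM. Its groups overlapped, with a log2 fold change of 0.11 ± 0.20 (adjusted p = 0.709). Jph2, which encodes junctophilin 2, was measured at 391 and 233 CPM against 469.8 and 478 CPM. The antibody sections again lay close together above both others, with a log2 fold change of 0.60 ± 0.28 (adjusted p = 0.168).

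**Figure D1:**
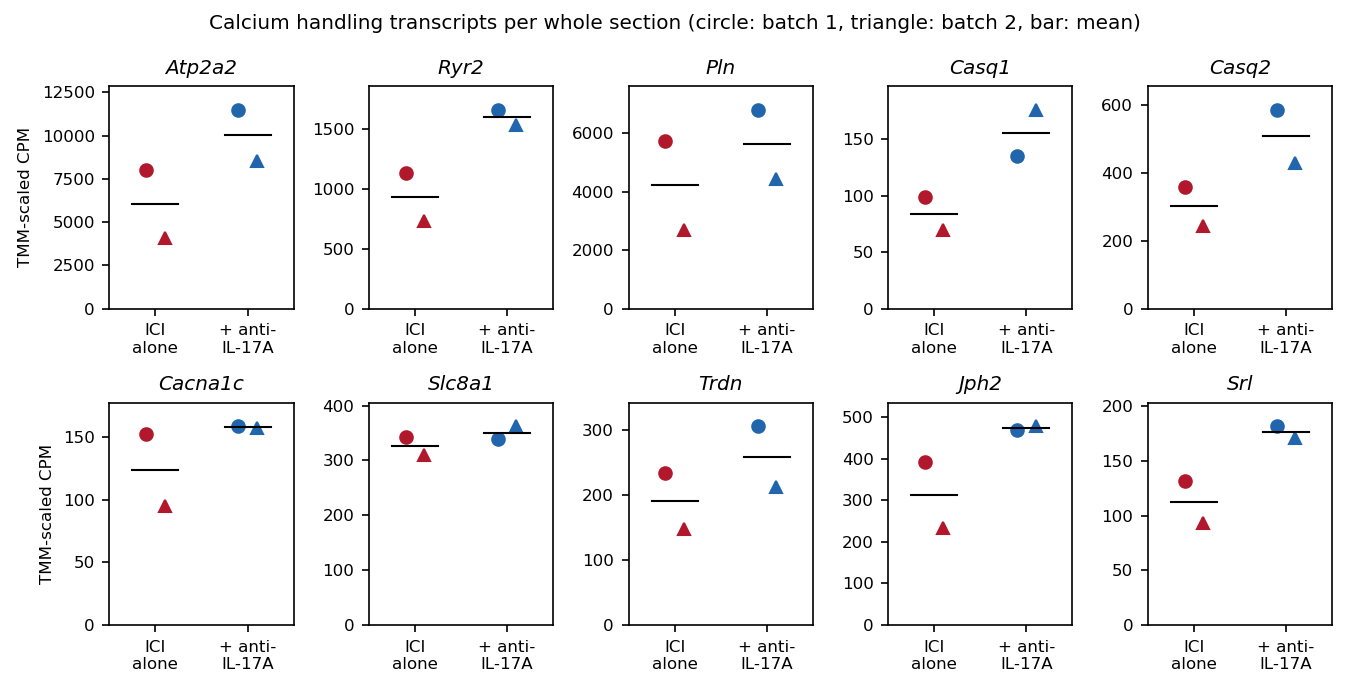
TMM-scaled CPM (vertical axes, linear and starting at 0, 1 panel per gene) of the 10 calcium handling genes in each whole section, by group, with circles for batch 1, triangles for batch 2 and bars for group means. The antibody sections lie above both ICI-alone sections for 7 genes and overlap them for Pln, Slc8a1 and Trdn.

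The count depended on single sections. Without ICI-alone replicate 1, 6 of 10 genes passed as higher, when 8.2% of all genes did, and without any other section 0 of 10 passed. When counts were scaled to the summed UMIs of 22 sarcomere genes in place of the library, which gives a change per sarcomere transcript, 0 of 10 passed and the median log2 fold change was 0.084, against -0.52 over all genes. On that scale the log2 fold change was 0.35 ± 0.40 for Casq1 (adjusted p = 0.671), 0.21 ± 0.25 for Atp2a2 and -0.49 ± 0.37 for Slc8a1 (adjusted p = 0.429). Direction changed on that scale for Pln (-0.11), Cacna1c (-0.19), Slc8a1 and Trdn (-0.13). The sarcomere genes include Myh6, which lay at 9977 and 4650 CPM with ICIs alone and at 22277 and 16722 CPM with the antibody. The sum used for scaling thus holds a gene that itself differed between groups, and its part in these changes of direction was not tested. Summed, the 10 genes held 24.6 and 20.8 UMIs per 100 sarcomere UMIs without the antibody and 24.997 and 23.1 with it, and these groups overlapped (exact permutation p = 0.667, two-sided).

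Ratios between members were compared because they do not depend on the library total. Pln UMIs per 100 Atp2a2 UMIs, the brake relative to the pump, were 71.9 and 66.2 in the ICI-alone sections, against 59.1 and 51.8. Both antibody sections were lower, with means of 69.0 ± 4.004 and 55.5 ± 5.19 (SD, n = 2), and in tissue away from leukocytes the values were 73.0 and 70.4 against 60.7 and 53.9. Ryr2 UMIs per 100 Cacna1c UMIs, the release channel relative to its trigger, were 747 and 773 against 1049 and 980.1, again apart. Both ratios gave a two-sided exact permutation p of 0.333, the smallest that this test can give with 2 sections against 2. As a median over spots of thinned UMIs, Pln per 100 Atp2a2 was 69.7 and 58.8 against 57.5 and 52.5, which lay closer together. Slc8a1 UMIs per 100 Atp2a2 UMIs were 4.28 and 7.64 against 2.95 and 4.23, narrowly apart. Away from leukocytes this ratio overlapped, at 3.97 and 5.84 against 2.87 and 4.14. Casq1 UMIs per 100 Casq2 UMIs overlapped, at 27.5 and 28.6 against 23.1 and 40.9. Probe efficiency differs between genes, so a ratio has meaning only between sections.

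The comparison was repeated in remote spots, which lay at least 3 grid steps from any leukocyte-rich spot, had all 6 neighbours under tissue and were not rich in atrial markers. The question was whether the members still differed away from infiltrates. There were 1467 and 1060 such spots in the ICI-alone sections, against 1954 and 1648. With Nppa left out of the atrial markers there were 1493 and 1334, against 1955 and 1655. The atrial rule thus took more spots from the ICI-alone sections, through Nppa. All 10 genes again had a higher mean with the antibody and 0 of 10 passed, as did 0% of 15085 genes. The median log2 fold change was 0.43, against 0.029 over all genes. Only 6 genes of the transcriptome passed in either direction, although 3981 had an unadjusted p under 0.05. With Nppa left out of the atrial markers 0 of 15389 genes passed as higher and 3 as lower.

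Casq1 in remote spots lay at 121 and 87.2 CPM with ICIs alone and at 168 and 209 CPM with the antibody. The groups were apart by a log2 fold change of 0.86 ± 0.21 (adjusted p = 0.0805), close to the value of the whole section. The atrial rule, by which the remote spots leave spots out, took unlike spots in the ICI-alone sections and in antibody replicate 2 (library-size scale). In the ICI-alone sections these were Nppa-rich spots with Myl7 at 0 and 0.644 CPM. Casq1 was higher there than elsewhere, at 128 against 88.7 CPM and 133 against 57.3 CPM. In antibody replicate 2 the spots held Myl7 at 7576 CPM, and Casq1 was lower there, at 89.5 against 195 CPM. The values of these unlike spots are not to be set against each other. With the batch as a block Casq1 passed (adjusted p = 0.0299), 1 of 10 members when 5.86% of all genes passed as higher. Ryr2 lay at 1405 and 1278 CPM against 2143 and 1805 CPM, a log2 fold change of 0.56 ± 0.25 (adjusted p = 0.207). Atp2a2 lay at 9748 and 7169.7 CPM against 14563 and 9988 CPM, apart by 0.54 ± 0.40 (adjusted p = 0.428). The other genes gave log2 fold changes from 0.044 for Slc8a1, whose groups were nearly equal, to 0.62 for Casq2 (adjusted p = 0.172). Scaled to sarcomere transcripts, 5 of 10 were positive with a median of 0.022.

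**Figure D2:**
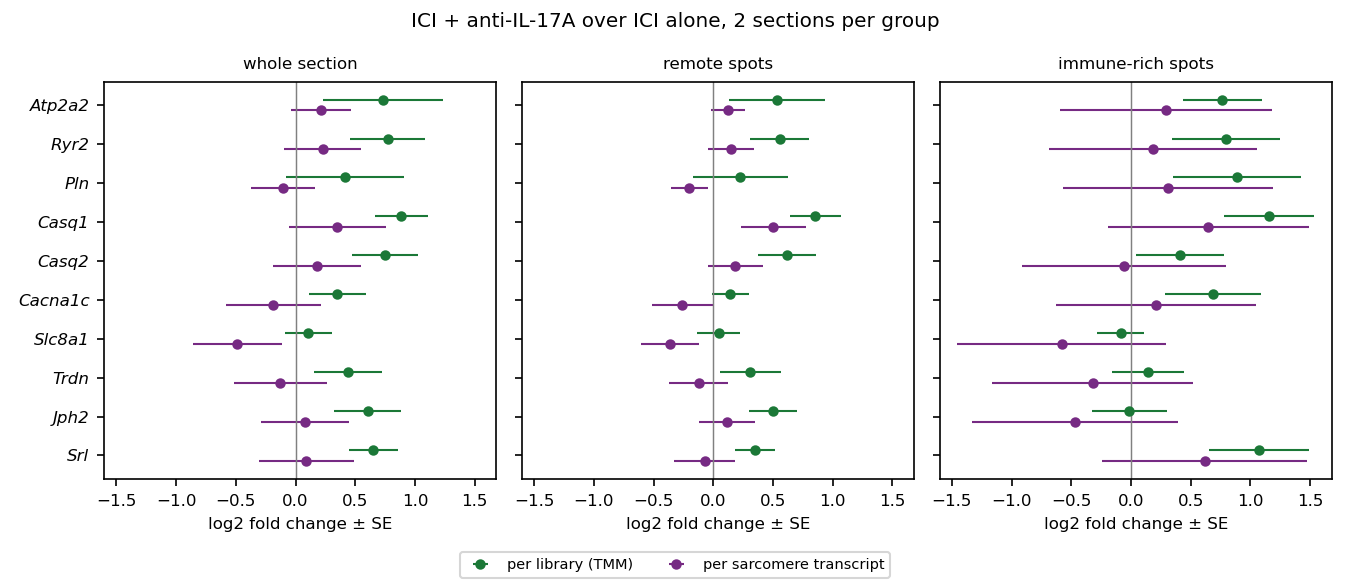
Log2 fold change of ICI + anti-IL-17A over ICI alone (horizontal axes) for each gene, in whole sections, remote spots and immune-rich spots, with bars of 1 standard error and 2 sections per group. On library scaling every gene lies above 0 in whole sections and remote spots, and values per sarcomere transcript lie lower.

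Leukocyte-rich spots were then set against the rest of the tissue. Spots were scored after random thinning to 5000 UMIs each, and those with at least 44 thinned UMIs of the 20-gene leukocyte panel were called immune-rich. This gave 230 and 536 spots with ICIs alone (9.23% and 17.6%) and 218 and 73 with the antibody (8.72% and 2.86%). All 10 calcium handling genes were lower there, where 24.2% of 18211 genes were. The median log2 fold change was -3.25, against -3.32 for 22 sarcomere genes and 0.18 over all genes. In single spots the median share of UMIs on the 10 genes was 0.105%, 0.0894%, 0.109% and 0.330% in immune-rich spots and 1.89%, 1.23%, 2.56% and 1.94% in the others.

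Pln, the pump inhibitor, had the largest fitted fall, from 7157, 3879, 8753 and 4962 CPM in the other spots to 434, 189, 242 and 776 CPM in immune-rich spots. That left 6.06%, 4.86%, 2.77% and 15.6% of the level elsewhere, lowest in antibody replicate 1 and highest in antibody replicate 2. Pln kept the smallest share of the 10 genes in 3 sections, but not in antibody replicate 2, where Casq2, Ryr2 and Srl kept 13.5%, 13.7% and 14.5%. The log2 fold change was -4.08 ± 0.42 (adjusted p = 7.6e-05). Atp2a2 kept 11.5%, 11.2%, 6.47% and 17.8%, with a log2 fold change of -3.18 ± 0.32 (adjusted p = 6.45e-05). Ryr2 fell by 3.77 on the log2 scale, and Trdn, which anchors calsequestrin to it, fell by 3.32.

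The calcium-binding proteins of the store fell as well. Srl kept 7.31%, 5.55%, 4.87% and 14.5% of its level elsewhere (log2 fold change -3.82 ± 0.24), and Casq2 kept 10.3%, 8.22%, 3.70% and 13.5% (-3.63 ± 0.29). Casq1 kept 12.1%, 12.9%, 9.75% and 21.6% (-2.91 ± 0.18, adjusted p = 1.85e-05). For all of these, antibody replicate 2, which has the fewest immune-rich spots, kept the most. Cacna1c fell by 3.08 and Jph2 fell by 2.90 on the log2 scale.

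Slc8a1 had the smallest fall, from 411, 416, 426 and 403 CPM elsewhere to 129, 117, 80.3 and 128 CPM in immune-rich spots. It kept 31.3%, 28.1%, 18.9% and 31.8%, the highest share of the 10 genes in each of the 4 sections. The log2 fold change was -1.89 ± 0.17 (adjusted p = 3.9e-05). Per sarcomere transcript Slc8a1 was higher in immune-rich spots (1.32 ± 0.43, adjusted p = 0.00211), the single member to pass, but 96.5% of all genes were higher on that scale and nothing particular to Slc8a1 is read from it. Pln lay at -0.86 ± 0.45 on that scale (adjusted p = 0.0550).

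**Figure D3:**
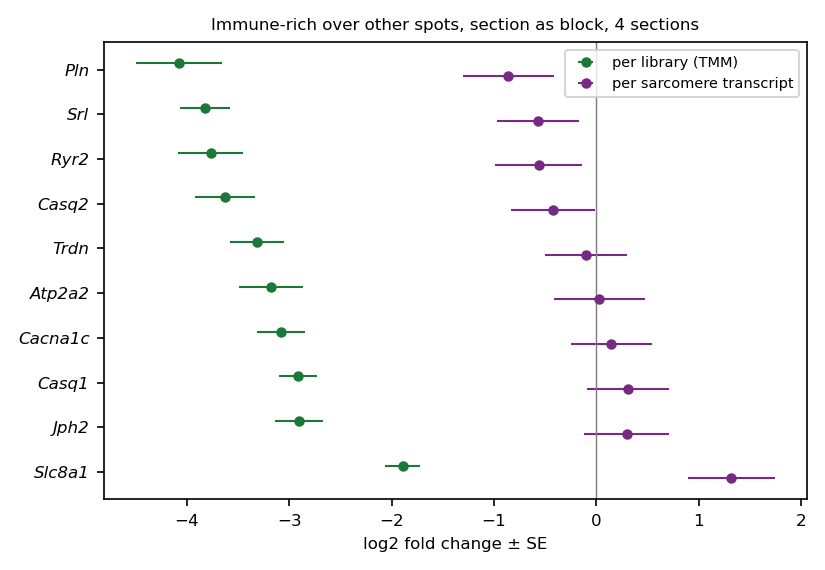
Log2 fold change of immune-rich over other spots (horizontal axis) for each of the 10 genes, with bars of 1 standard error from the fit with section as a block. Every gene lies between -4.08 (Pln) and -1.89 (Slc8a1) on library scaling.

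The gradient around the infiltrates was described by grid steps from the nearest immune-rich spot, as a percentage of the CPM (library-size scale) at 4 or more steps in the same section. Pln lay at 5.72%, 3.70%, 3.73% and 17.7% in the immune-rich spots, at 25.8%, 20.5%, 16.5% and 35.7% at 1 step and at 52.5%, 44.9%, 45.8% and 57.4% at 2 steps. Atp2a2 lay at 11.1%, 8.77%, 8.89% and 20.3%, then 32.6%, 27.6%, 29.1% and 40.2%, then 55.2%, 46.6%, 54.6% and 62.3%. Slc8a1 started higher, at 32.7%, 27.1%, 26.4% and 37.3%, and reached 78.2%, 75.4%, 69.2% and 69.4% at 2 steps. In each section all 3 genes were thus still below their distant level at 2 steps. Sarcomere genes summed lay at 12.4%, 8.71%, 7.78% and 21.4% in the immune-rich spots and at 38.3%, 35.7%, 27.1% and 40.6% at 1 step. Relative to them, Pln climbed from 41.0, 31.2, 37.7 and 51.9 UMIs per 1000 sarcomere UMIs in immune-rich spots to 88.9, 73.4, 78.6 and 63.0 at 4 or more steps. Slc8a1 went the other way, from 12.2, 19.3, 12.5 and 8.55 to 4.61, 6.22, 3.68 and 4.92. In the class test 96.5% of all genes were higher in immune-rich spots on this scale, so nothing particular to Slc8a1 is read from it here either. Rings of 1 section share its library, so these values carry no test.

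**Figure D4:**
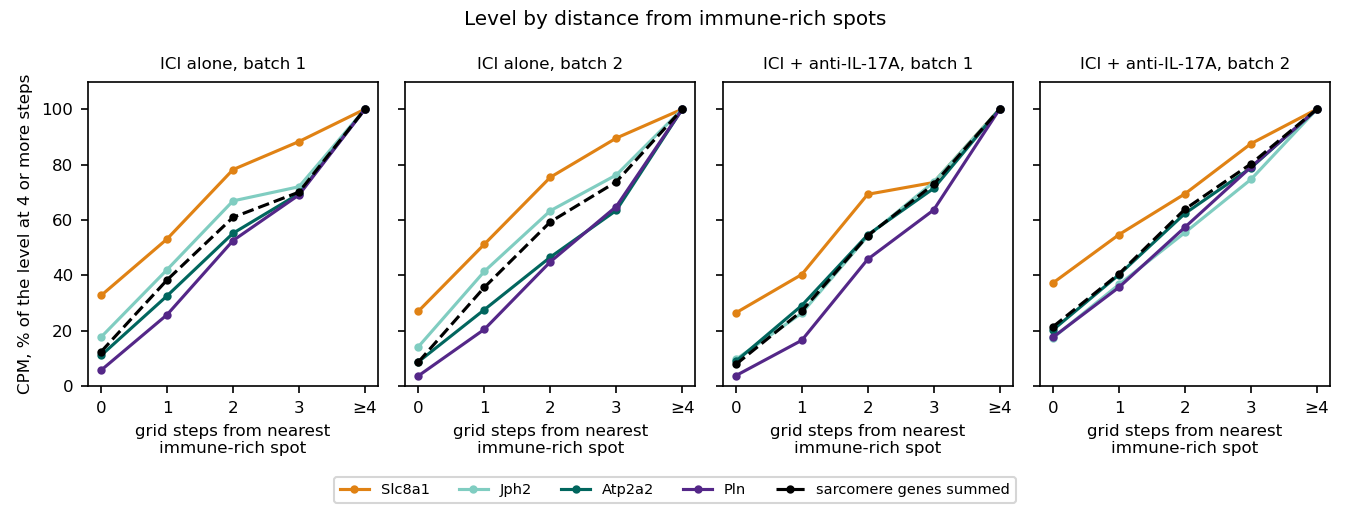
CPM as a percentage of the level at 4 or more grid steps (vertical axis) against grid steps from the nearest immune-rich spot (horizontal axis), 1 panel per section and 1 line per gene or gene group. Slc8a1 starts between 26.4% and 37.3% in immune-rich spots, and Pln between 3.70% and 17.7%.

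**Figure D5:**
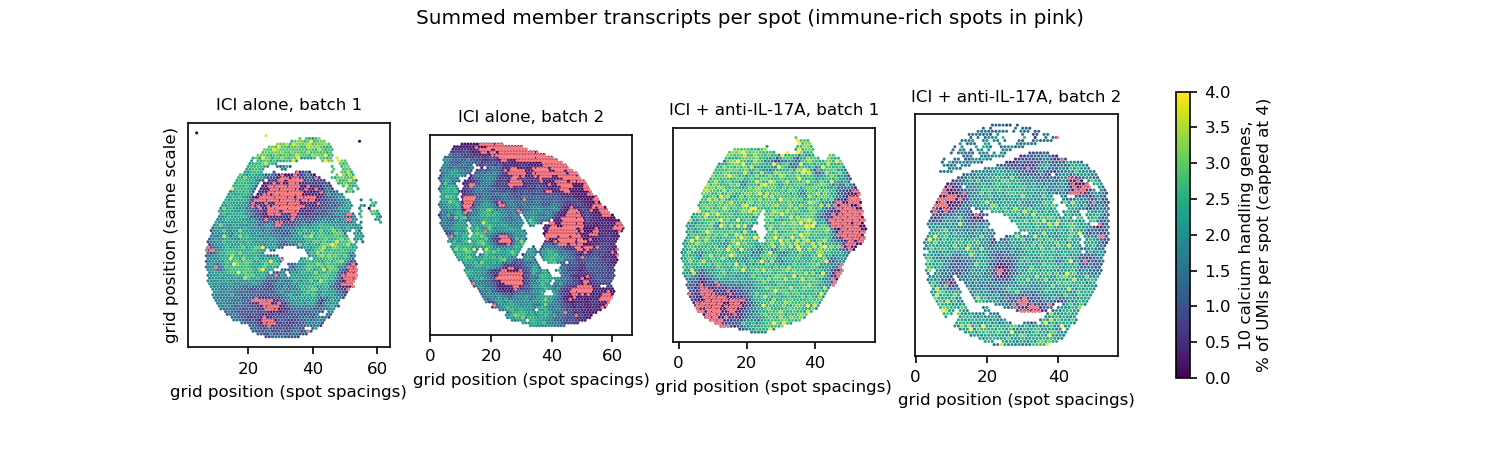
Position of every spot on the capture grid (axes in spot spacings, same scale), coloured by the summed share of UMIs on the 10 genes in percent, capped at 4, with immune-rich spots in light red. The median share is 0.105%, 0.0894%, 0.109% and 0.330% in immune-rich spots, against 1.89%, 1.23%, 2.56% and 1.94% in the other spots.

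Within immune-rich spots 0 of 10 genes passed the treatment test, when 0.891% of 13015 genes passed as higher, and 8 of 10 had a positive log2 fold change. The batches disagreed. In batch 1 only 3 of 10 genes, Atp2a2, Casq1 and Srl, were higher in the antibody section, and in batch 2 all 10 were, where antibody replicate 2 rests on 73 spots. Casq1 lay at 14.97 and 13.9 CPM with ICIs alone and at 20.8 and 49.5 CPM with the antibody, apart by a log2 fold change of 1.16 ± 0.38 (adjusted p = 0.124). With the batch as a block it passed (adjusted p = 0.0472), when 4.53% of all genes passed as higher. Srl lay at 12.2 and 8.16 CPM against 14.1 and 32.3 CPM, a log2 fold change of 1.07 ± 0.42 (adjusted p = 0.177). For Slc8a1 and Jph2 the log2 fold changes were -0.087 and -0.016.

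Whether the fall in immune-rich spots differed between treatments was tested as an interaction. It passed for 0 of 10 genes, and for 0.318% of all genes in either direction, with Jph2 nearest (-0.73 ± 0.37, adjusted p = 0.398). Without antibody replicate 2, 4 of 10 genes passed with a deeper fall under the antibody, Ryr2 (-1.19, adjusted p = 0.00982), Casq2 (-1.32, adjusted p = 0.00361), Trdn (-1.23, adjusted p = 0.00387) and Jph2 (-1.29, adjusted p = 0.00282). On that setting 6.37% of all genes passed in this direction, and a single antibody section is assumed to vary like the others. The result therefore rests on the section with the fewest immune-rich spots.

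At the tissue edge, taken as spots with under 6 neighbours under tissue, Casq1 was lower than in the interior, the single member of 10 to pass, when 0.818% of 16006 genes were lower. Casq1 lay at 78.1, 57.7, 114 and 141 CPM at the edge and at 100.02, 75.3, 145 and 197 CPM inside, or 78.1%, 76.7%, 78.4% and 71.4% of the interior. The 4 sections were alike, and the log2 fold change was -0.40 ± 0.06 (adjusted p = 0.0190). Srl lay higher at the edge, at 126%, 109%, 107% and 120% of the interior, without passing (0.21 ± 0.07, adjusted p = 0.131). Per sarcomere transcript Srl passed (0.41 ± 0.09, adjusted p = 0.0387, when 3.08% of all genes were higher) and Casq1 did not (-0.19 ± 0.09, adjusted p = 0.261). With scaling by library size alone Srl passed and Casq1 did not, and without ICI-alone replicate 2 or without antibody replicate 2 no member passed. Sln, the atrial pump inhibitor described next, was higher at the edge (log2 fold change 4.62 ± 0.79, adjusted p = 0.0255). In whole sections Sln lay at 0.628 and 0.559 CPM with ICIs alone and at 0.501 and 147 CPM with the antibody. It was thus a rare transcript in every section but antibody replicate 2. There 5072 of its UMIs lay in the 168 spots rich in Myl7 and Myl4. The edge comparison was also run without the spots rich in atrial markers. There 215 of 16400 genes were higher and 100 lower, against 211 and 131 of 16006 with all spots. Casq1 was lower at the edge in all 10 settings (log2 fold change -0.49 to -0.19). It passed in 6 of them, and the setting without the spots rich in atrial markers was among these. For other genes these counts do not tell what part atrial tissue had in the edge value.

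Atrial muscle could be described in antibody replicate 2 alone, with no replicate and no test, in its 168 spots rich in Myl7 and Myl4 against its other 2417 spots. Values are CPM by library size with 95% exact Poisson intervals, which cover counting error only. Pln lay at 2957 CPM (2888 to 3027) against 4865 CPM, Casq1 at 77.7 CPM (66.9 to 89.8) against 196 CPM and Cacna1c at 75.6 CPM (64.9 to 87.5) against 174 CPM. These 3 genes were lower there. Srl was higher, at 282 CPM (261 to 305) against 174 CPM, as was Casq2 at 587 CPM (557 to 619) against 448 CPM, and Atp2a2 was nearly equal at 9468 CPM (9344 to 9592) against 9100.2 CPM. Sln, the sarcolipin gene, an atrial inhibitor of the same pump, lay at 2142 CPM there and at 3.04 CPM elsewhere. Strit1, whose product DWORF relieves the pump of its inhibitors, lay at 4.64 CPM against 229 CPM.

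Across spots of a section, thinned to equal depth, the abundant members varied together. The Pearson correlation of log values, averaged over the 4 sections, was 0.864 for Atp2a2 with Pln (0.746 to 0.909), 0.764 for Ryr2 with Pln and 0.750 for Atp2a2 with Ryr2. Casq1, with a median of 0, 0, 0 and 1 thinned UMIs per spot, correlated with the other members at 0.074 to 0.192, and in counts this sparse nothing is read from it. The summed members followed the summed sarcomere genes at 0.945, 0.924, 0.955 and 0.904 and ran against the leukocyte panel at -0.776, -0.838, -0.772 and -0.689. Among 1417 genes abundant enough to compare, those most like the summed members were Myh6 (0.913), Mb (0.903), Tnnt2 (0.891), Slc25a4 (0.887) and Tnni3 (0.877). The members themselves were left out of this ranking. Myh6 was the closest gene outside the members for each of the 9 members that were abundant enough, all but Casq1. Cacna1c was nearly as sparse as Casq1, with a median of 0, 0, 1 and 1 thinned UMIs per spot. Its correlations with the member Pln (0.344, 0.244 to 0.460) and with Myh6 (0.340, 0.216 to 0.465) were nearly equal. Spots share a library and tissue layout, so these are descriptions without a test.

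The authors' deposited table gives a Moran's I per gene, a score of how far neighbouring spots resemble each other. In the authors' deposited table Pln stood at 0.885, 0.858, 0.884 and 0.713, ranked 6, 3, 6 and 5 among 19238, 19239, 19223 and 19219 genes. It was thus among the most spatially ordered transcripts of every section. Atp2a2 stood at 0.823, 0.827, 0.834 and 0.633 in the authors' deposited table, and Slc8a1 at 0.412, 0.466, 0.323 and 0.124, ranked 915, 576, 1074 and 1471. The section with the fewest UMIs had the lowest values for all 3 genes, and the part of depth in this was not tested.

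Of 68 other genes of calcium handling, 5 rose and 4 fell with the antibody in whole sections and 59 did not pass, with a median log2 fold change of 0.15. Of all genes tested, 3.03% passed as higher and 8.81% as lower. Ryr3, a minor ryanodine receptor, rose from 0.808 and 0.691 CPM to 2.05 and 1.76 CPM (1.35 ± 0.27, adjusted p = 0.0295), and Mrln, which encodes the pump inhibitor myoregulin, from 0.763 and 0.485 CPM to 1.98 and 1.56 CPM (1.51 ± 0.32, adjusted p = 0.0343). Both were rare transcripts. Ank2, the ankyrin that places the exchanger in the membrane, rose from 127 and 84.6 CPM to 216 and 203 CPM (0.99 ± 0.22, adjusted p = 0.0378), and Cacna1g, a T-type channel, rose by 1.01 ± 0.23 (adjusted p = 0.0389). The fifth was Camk2b (1.47 ± 0.34, adjusted p = 0.0389), named after its values were seen. Calr, a calcium-binding chaperone of the endoplasmic reticulum, fell from 864 and 884 CPM to 397 and 454 CPM (-1.04 ± 0.23, adjusted p = 0.0369). The others that fell were the L-type channel gene Cacna1d (-1.36 ± 0.27), the membrane trafficking gene Ehd3 (-1.07 ± 0.25) and the store calcium sensor Stim2 (-0.53 ± 0.14). With the batch as a block 12 rose and 6 fell, when 8.06% of all genes passed as higher and 12.3% as lower.

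Further regulators of the pump and channel did not pass. Hrc, a histidine-rich calcium-binding protein of the store, lay at 422 and 190.0 CPM with ICIs alone and at 882 and 678 CPM with the antibody, with no overlap (1.35 ± 0.39, adjusted p = 0.0632, or 0.0210 with the batch as a block). Strit1 lay at 205 and 52.2 CPM against 347 and 200.02 CPM, which overlapped (1.09 ± 0.57, adjusted p = 0.210, or 0.0313 with the block). Sln lay at 0.628 and 0.559 CPM against 0.501 and 147 CPM, so its log2 fold change of 6.95 ± 2.02 (adjusted p = 0.0655) comes from antibody replicate 2, which held the Myl7-rich spots. Fkbp1b, which encodes the channel-binding FKBP12.6, lay at -0.81 ± 0.22 on the log2 scale (adjusted p = 0.0546, or 0.0426 with the block). Camk2d, the main cardiac CaM kinase gene, and Itpr1, an inositol trisphosphate receptor, had log2 fold changes of 0.09 and 0.18 (adjusted p = 0.761 and 0.390). In remote spots 0 of 65 tested genes of this list passed, and in immune-rich spots Gem, a small GTPase that restrains L-type channels, rose from 14.8 and 13.0 CPM to 35.7 and 36.6 CPM (1.38 ± 0.18, adjusted p = 0.0333).

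In immune-rich against other spots the wider list split, with 34 lower, 14 higher and 19 not passing of 67 tested, when 24.2% of all genes were lower and 21.7% higher. Hrc (-4.52 ± 0.35) and Strit1 (-4.09 ± 0.26) were lower, as was Camk2d (-1.05 ± 0.16), while Fkbp1b was higher (1.45 ± 0.16). All 25 potassium and sodium channel genes tested and all 22 sarcomere genes tested were lower there. With treatment, 6 of the 25 channel genes rose in whole sections, with a median log2 fold change of 0.70, and of the 22 sarcomere genes 0 rose and 1 fell, with a median of 0.43. The median of the 10 calcium handling genes, 0.63, lay between these. All the lists were chosen with earlier results of these data known. Among 9 cardiac stress genes 5 fell, with a median of -1.25. These shares are read against 3.03% of all genes higher and 8.81% lower. The summed level of the stress genes overlapped between groups, at 19394 and 16494 CPM against 6705 and 17155 CPM (library-size scale). Whether leukocyte and fibroblast transcripts, which were lower with the antibody, had a part in these values was not tested.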

How the data were processed

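Per the labels, Visium libraries were made from 1 heart section each, 2 per group, and grouped by the treatment label. The counts are raw UMIs for each gene and spot, deposited as matrices made with Space Ranger 2.1.0 per the file headers, and with mm10 and Seurat 5.1.0 per the submitters' processing notes. No probe set is named in these sources. A further deposited score per gene is Moran's I of each section.

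The 10 genes and all lists were chosen with earlier results of these data known. Counts were summed per section or spot class, filtered with filterByExpr, scaled with TMM and tested over all genes in R 4.3.3 with edgeR 4.0.16 (quasi-likelihood F test), which uses limma 3.58.1. The threshold was a Benjamini-Hochberg adjusted p of 0.05. Spot classes were compared with section as a block, leaving the 20 panel genes out. Python 3.11.15 with numpy 2.4.6, scipy 1.17.1 and pandas 2.3.3 made the sums and ratios. The tests were checked on simulated counts. Spots under 5000 UMIs (between 4 and 105 per section) were left out of the tests of immune-rich against other spots. They could enter the remote, edge and interior spots and the rings. The median shares per spot and the map count them among the spots that are not immune-rich. The immune-rich threshold was the smallest count that at most 10% of spots reach, sections weighted equally. The rule of 1% of UMIs on 5 atrial markers, used for remote spots, also took 63 and 536 spots of the ICI-alone sections through Nppa, so a rule without Nppa (over 0.1% on 4 markers) was added after seeing the data.

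Batch numbers pair the sections per the labels. Deviations of same-batch sections correlated at 0.175 over 18817 genes, and the biological coefficient of variation was 17.0%. Named were the 10 genes, 6 listed regulators (Sln, Hrc, Camk2d, Fkbp1b, Strit1, Itpr1), per treatment test up to 4 genes of smallest p per direction in the wider calcium list, and the 5 genes most like the members. Alternatives were the block, scaling, filters, thresholds, spot subsets, single sections left out, DESeq2 1.42.0 and limma. Depth gives 3 counts a value of 0.0410 to 0.0909 CPM.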

Additional observations from a re-analysis of the deposited data

How the results depend on the processing

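Counts of the 10 genes that passed depended on the setting in every treatment comparison. In whole sections 1 passed, against 3 with the replicate block, 2 with library size alone, 0 per sarcomere transcript, 0 without atrial-rich spots, 0 with sections thinned to equal totals, 2 with the filter at 10 CPM, 4 with DESeq2 and 0 with limma on mean log values per spot, and 0 to 6 with 1 section left out. The genes of the whole transcriptome that passed as higher numbered 571 of 18817, against 840 with library size alone, 31 per sarcomere transcript, 318 of 18693 without atrial-rich spots, 359 of 17708 with equal totals, 359 of 9504 with the filter, 785 of 19286 with DESeq2 and 167 with limma, which called 3618 as lower. In remote spots 0 passed, against 1 with the replicate block, when 884 of 15085 genes passed as higher. In immune-rich spots 0 passed, against 1 with the block, when 590 of 13015 genes passed as higher. In both, the count also changed with 1 section left out. The fall in immune-rich spots passed for 10, against 1 per sarcomere transcript, where that gene was higher. The interaction passed for 0, against 2 at a threshold of 5% of spots and 1 when spots were ranked by macrophage markers. Over all genes it passed for 58 of 18211, against 866 of 17503 and 223 of 17357. Its count of members also changed with 1 section left out. At the edge 1 passed, against 3 when edge spots had under 5 neighbours and 0 to 2 with 1 section left out. Over all genes 342 of 16006 passed at the edge, against 875 of 16585 with under 5 neighbours. With 1 section left out, 73 of 17300 to 949 of 16972 did. General shifts in calling and shifts of the members are not told apart by these counts. The batch block changed no other call of the 10 genes, and the causes of these shifts were not tested. Of the results for single genes 619 kept their direction and side of the threshold, 29 passed only under the alternative, 16 no longer passed and 74 changed direction.

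Signs that changed, as log2 fold changes, were the following. Per sarcomere transcript, whole sections gave -0.11 for Pln, -0.19 for Cacna1c, -0.49 for Slc8a1 and -0.13 for Trdn. Remote spots gave -0.20 for Pln, -0.26 for Cacna1c, -0.36 for Slc8a1, -0.12 for Trdn and -0.072 for Srl, and immune-rich spots gave -0.061 for Casq2 and -0.32 for Trdn. On the same scale immune-rich against other spots gave 0.029 for Atp2a2, 0.31 for Casq1, 0.15 for Cacna1c, 1.32 for Slc8a1 and 0.30 for Jph2. The interaction gave 0.060 for Atp2a2. The edge gave 0.12 for Atp2a2, 0.099 for Ryr2, 0.040 for Pln, 0.0090 for Casq2, 0.050 for Cacna1c and 0.040 for Trdn. With library size alone, immune-rich spots gave 0.071 for Slc8a1 and 0.14 for Jph2, the interaction 0.16 for Atp2a2 and 0.051 for Ryr2, and the edge 0.042 for Atp2a2 and 0.020 for Ryr2. With limma Slc8a1 lay at -0.0093 in whole sections. With no filter Slc8a1 lay at -0.038 in remote spots and Trdn at -0.015 in immune-rich spots. A threshold of 20% of spots gave -0.019 for Pln, -0.086 for Cacna1c and -0.063 for Slc8a1 in remote spots, -0.30 for Trdn in immune-rich spots and -0.081 for Pln in the interaction. A threshold of 5% gave -0.068 for Cacna1c, 0.0080 for Slc8a1 and -0.58 for Trdn in immune-rich spots, and -0.17 for Casq1, -0.63 for Cacna1c and -0.26 for Srl in the interaction. Ranking by T cell markers gave -0.30 for Pln and -0.080 for Cacna1c in the interaction, and ranking by macrophage markers 0.12 for Atp2a2, 0.11 for Ryr2, 0.052 for Casq2 and 0.037 for Jph2.

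With 1 section left out, Pln ranged from -0.025 to 1.00 in whole sections. In remote spots Slc8a1 ranged from -0.017 to 0.046, Pln from -0.18 to 0.49 and Trdn from -0.070 to 0.55. In immune-rich spots Jph2 ranged from -0.55 to 0.38, Slc8a1 from -0.47 to 0.15, Ryr2 from -0.24 to 1.38, Pln from -0.19 to 1.49, Casq2 from -0.25 to 0.92, Cacna1c from -0.063 to 1.31 and Trdn from -0.41 to 0.62. In the interaction Atp2a2 ranged from -0.82 to 0.63, Ryr2 from -1.19 to 0.79, Casq2 from -1.32 to 0.54, Slc8a1 from -0.66 to 0.085, Trdn from -1.23 to 0.56, Pln from -0.98 to 1.51, Casq1 from -0.37 to 0.77, Cacna1c from -0.56 to 1.07 and Srl from -0.39 to 1.18. At the edge Atp2a2 ranged from -0.14 to 0.011 and Ryr2 from -0.19 to 0.0033. A lone section of a group was assumed to vary like the other group. Immune-rich spots of antibody replicate 2 are few, which limits the precision there.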

Other observations

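The 5-marker atrial rule also took 63 spots of ICI-alone replicate 1 and 536 of ICI-alone replicate 2, where Nppa, which encodes atrial natriuretic peptide and is also induced in stressed ventricle, was high while Myl7 lay at 0 and 0.644 CPM. In these spots Casq1 lay at 133 CPM (95% exact Poisson interval 127 to 139.7, counting error only) against 57.3 CPM in the other spots of ICI-alone replicate 2, and at 128 CPM (114 to 143) against 88.7 CPM in ICI-alone replicate 1. Pln lay at 2735 CPM against 2765 CPM in ICI-alone replicate 2. Casq1 was thus higher in the Nppa-rich spots of both ICI-alone sections and lower in the Myl7-rich spots of antibody replicate 2. The spots were picked by expression within 1 section each, so no test was made.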
